A study of Mus musculus with 16 samples.

Results

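Exon bins that lie inside annotated introns were examined in ribodepleted RNA-seq of mHiPPoE-2 cells, a transformed mouse hippocampal neuron line. An exon bin is a stretch of the flattened Ensembl gene models that has its own read count, and a bin of this kind is exon in one transcript and intron in another. The bins were chosen by 3 conditions: a length of at least 300 bp, a position wholly inside 1 row of the RefSeq intron table on the same chromosome and strand, and a mean of at least 10 counts over the 16 libraries. Of 468583 exon bins, 87005 lay inside an intron row, 23696 of those were long enough, and 2788 of those reached the count. They belonged to 1907 genes or joined gene rows, 1405 of which held 1 such bin. Their lengths ran from 300 to 16910 bp with a median of 1429 bp, and the median of their mean counts was 17.6. The count condition used the same libraries that are compared below: 1391 of the 2788 bins averaged at least 10 counts in each of the 5 genotypes and 1397 did not, so that a bin could enter through the genotype in which it is high. Just inside the limits were 576 bins with a mean of 10 to 12 counts and 160 bins of at most 350 bp, and just outside them were 716 bins with a mean of 8 to 10 and 162 bins of at least 250 but under 300 bp. The rule was set with the Ide bin in intron 11 as its example.

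The 16 libraries form 8 groups of 2, all from mHiPPoE-2 cells of strain Crl:CFW(SW)-024 grown without treatment. The unedited line is called WT. The METTL3 KO line is 1 clonal isolate made with guided Cas9, and 2 control clones received Cas9 without a guide RNA. There are 2 RBM45 KO clones, also made with guided Cas9, and 2 KO rescue clones, which are RBM45 KO cells that carry F-HA-tagged RBM45_mut[delta]gRNA. The names of the 4 control count columns match no label. They were taken as control because all other columns match other groups. Which control or rescue clone bears which number in the labels is not settled, so the clone numbers of these 2 genotypes are names only. The labels do not say whether the replicate libraries of a group came from separate cultures, so the tests between single lines measure only the spread between these libraries.

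A transcript can end inside an intron when the pre-mRNA is cut and polyadenylated there before the intron is spliced out, and the result is a short RNA that lacks the exons further downstream. The U1 small nuclear ribonucleoprotein, which recognises 5′ splice sites, is known to hold back such premature cleavage. Other exon bins inside introns come from alternative first exons, from alternative coding exons and from introns that stay in the RNA. RBM45 is an RNA-binding protein that binds RNA carrying N6-methyladenosine (m6A), and METTL3 is the catalytic subunit of the enzyme that writes m6A, mainly in the motif GGACT and its relatives.

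The sequences shown here are the ends that the results turn on, read 5′ to 3′ on the transcript strand from GENCODE M21 transcripts on GRCm38, each 30 bases long. The first set is from the Ide bin at chr19:37301663-37303649 on the minus strand. It covers the first bases after the splice site, the only GGACT of the bin, its 3 copies of AATAAA and the last bases, with GGACT and AATAAA in capitals.
Ide, first bases, chr19:37303620-37303649, minus strand: aacatccaagcactgcagtgttgtaaacag
Ide, AATAAA 1026 bases before the end, chr19:37302689-37302718, minus strand: ataatttaagaaAATAAAttatcactgata
Ide, AATAAA 550 bases before the end, chr19:37302213-37302242, minus strand: tgggcttttaatAATAAAatgtcttttatt
Ide, AATAAA 170 bases before the end, chr19:37301833-37301862, minus strand: aactgcatacaaAATAAAtaagtggaaaat
Ide, GGACT, chr19:37301775-37301804, minus strand: tccctctagcctGGACTtcaggccataaat
Ide, last bases, chr19:37301663-37301692, minus strand: taaatacacctgtgtacatgactggttttt
The distances run from the end of each printed window to the end of the bin. Neither AATAAA nor ATTAAA was found in the last 50 bases of the Ide bin. The bin had 0.503 GGACT per kb and a GC content of 41.2%.

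The second set shows ends of other intronic last exons, again with AATAAA in capitals. Ahnak, Map3k20, Nsd2 and Med7 are shown because their bins stand far above the rest of the intron. The intron row around Med7 is joined over several genes and need not be its own intron. Vcl is shown because its bin runs on from the exon before without a hexamer near its end.
Ahnak-202, chr19:9019163-9019192, plus strand: gtacaagccaAATAAAgctctttattaacc
Map3k20-204, chr2:72407472-72407501, plus strand: tccattttgcAATAAAcgttttgacagtaa
Nsd2-204, chr5:33872473-33872502, plus strand: atggttattacAATAAAaatAATAAAatca
Med7-201, chr11:46441498-46441527, plus strand: tttggagttggAATAAAaacttgaagtaat
Vcl-203, chr14:20998752-20998781, plus strand: atgcaaacatgcacatgaacacatacacac
Of the 2788 bins, 2768 could be read from a transcript. AATAAA and ATTAAA were searched in the last 50 bases on the transcript strand, not on the other strand. One or the other was found in 290 of the 520 last exons that stand apart from both flanking exons (55.8%) and in 133 of the 421 last exons that extend the exon before (31.6%). The share was 8.89% of whole introns and 21.4% of all 2768 bins. For comparison, 61.4% of 11865 other exon bins of at least 300 bp that end a transcript held one, as did 1.83% of 5079 that end none, and 40.4% of all 19712 exon bins of that length. GGACT, which contains the shorter GGAC, occurred at 0.841 per kb in the 2768 bins and at 0.971 per kb in all 19712. The rate of the Ide bin was below both but rests on 1 site, too few to call the bin poor in the motif. The Ide bin held 4 copies of GGAC, the one in GGACT among them, and rates of GGAC were not compared.

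The bins fell into kinds by how a GENCODE transcript uses them. Each kind is described by a share and by an exon ratio. The share is the percentage of the gene's exon-bin counts that fall in the bin, and the exon ratio is the bin's counts per kb over those of the gene's other exon bins outside introns. Last exons were the largest kind with 941 bins, 520 of them apart from both neighbours and 421 running on from the exon before. There were also 275 first exons, 380 internal stretches, 391 bins in a 1-exon transcript, 315 whole introns, 153 alternative exons that the intron table lists as a row of their own, 313 bins of another gene nested in the intron, and 20 that matched no transcript. Coding sequence overlapped 607 of the 2788 bins, and 1355 lay in a transcript of the type retained_intron.

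Last exons that stand apart from their neighbours and alternative exons had the highest levels relative to the gene's other exons, and whole introns, stretches that extend an exon and bins of 1-exon transcripts the lowest. The median exon ratio was 0.323 for last exons apart from both neighbours and 0.386 for alternative exons. It was 0.153 for first exons and 0.176 for internal stretches, but 0.0718 for last exons that extend the exon before, 0.0576 for whole introns and 0.0555 for bins of 1-exon transcripts. The rest of an intron was not counted directly. In each library it was the intron's count less the counts of all exon bins inside it, set to 0 where negative. Reads can count in several bins, so this difference can fall short of the reads there. In the ratio, a rest of under 3 counts over all libraries was taken as 3. Against the rest of the same intron, in counts per kb, the median ratio was 7.22 for last exons apart, 13.3 for alternative exons, 11.3 for internal stretches and 3.81 for first exons. The same ratio was 1.43 both for last exons that extend the exon before and for bins of 1-exon transcripts.

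**Figure D1:**
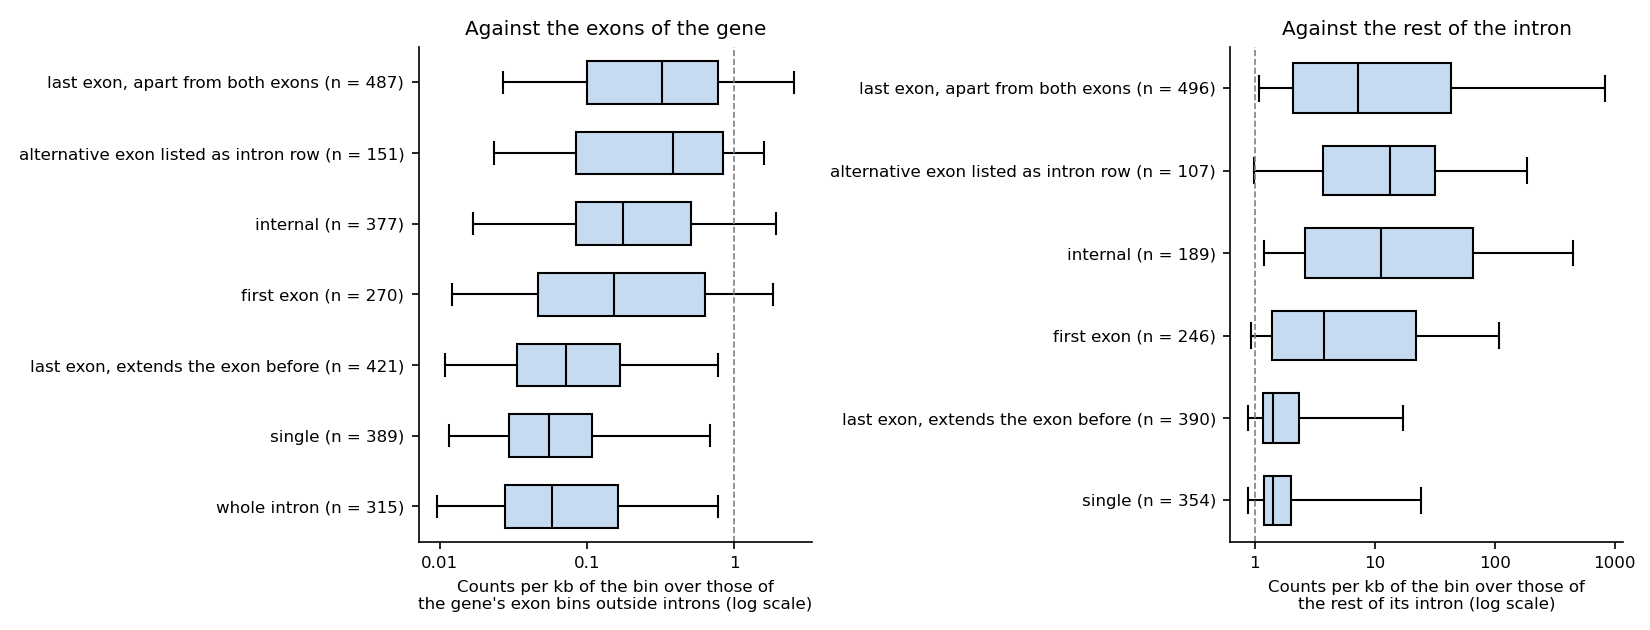
Level of the exon bins inside introns, by kind, as the ratio of a bin's counts per kb to those of the gene's exon bins outside introns (left panel) and to those of the rest of its intron (right panel), both on a log axis with a dashed line at a ratio of 1. Each box spans the quartiles with a line at the median, whiskers run from percentile 5 to percentile 95, bins with a ratio of 0 or none are left out, and the medians against the exons are lowest for whole introns and bins of 1-exon transcripts and highest for last exons apart and alternative exons.

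Among last exons apart from their neighbours, several carried most of their gene's counts. The bin of Ahnak, a giant scaffold protein of the cell cortex, held 90.9% of its gene's counts with a mean of 16974 counts per library, and it is the long coding exon of Ahnak-202 at chr19:9002287-9019196. Map3k20, a stress-activated kinase, had 61.2% of its counts in its bin at chr2:72401989-72407502, exon 12 of 12 of Map3k20-204. In both genes the bin is a long exon with most of the gene's reads. For Csf1, a cytokine of macrophage growth, the bin at chr3:107748542-107749169 held 16.6%. In Hnrnpa2b1, an RNA-binding protein, a bin of 385 bp at chr6:51462800-51463184 held 10.6%.

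Bins of a gene nested in the intron had a median share of 100% of their own gene. Among bins of named genes in an intron row listed for the same gene, the 4 highest shares belonged to bins with a gene on the other strand. These were Nphs1 at 100% (chr7:30484915-30486584), Fam221b at 99.6%, Gadl1 at 99.5% and Syn3 at 99.3%. Joined gene rows, predicted genes and Rik clones were not ranked. The Syn3 bin at chr10:86347774-86351144 lies over Timp3, an inhibitor of matrix metalloproteases, which averaged 210.7 CPM (read counts scaled to library size) ± 83.2 (SD, n = 4) in the control libraries. The library kit did not mark strand, so reads of Syn3 and Timp3 cannot be told apart here. A gene on the other strand overlapped 278 of the 2788 bins. Ptrh2 with 89.2% (chr11:86689559-86692457), Zfp599 with 76.5%, Cep295nl with 73.6% and Rnf24 with 72.5% lie in intron rows that were joined over several neighbouring genes. Med7 and Tmx1 do too, and so for these 6 genes the enclosing intron need not be their own.

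Several last exons stood out against an intron for which that difference left few counts or none. Lrrfip1, a regulator of transcription and innate sensing, had 28.7% of its counts in a last exon at chr1:91114853-91116921 with a mean of 436 counts. The difference left 0 counts for the rest of that intron over all libraries. Aebp2, a cofactor of the polycomb complex PRC2, had 7.60% at chr6:140651316-140651744, and the difference left 16 counts for the rest of its intron. For the Hnrnpa2b1 and Csf1 introns the difference was 0 as well. Since negative differences were set to 0, a 0 does not show that the rest had no reads. Itsn1, an endocytic scaffold, had 5.01% at chr16:91870498-91871347, where Atp5o lies on the other strand.

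The other kinds held alternative coding exons, starts and stretches that extend an exon. Vcan, the extracellular proteoglycan versican, had 39.3% of its counts in a coding exon at chr13:89688285-89693501 that some isoforms skip, and Dst, the cytoskeletal linker dystonin, had 10.3% in one at chr1:34187972-34193263. Palld, an actin-bundling protein, had 12.5% in an internal coding exon at chr8:61549571-61550165. Khdrbs1, the RNA-binding protein Sam68, had 23.4% in a stretch of its last exon at chr4:129713821-129715995, and Nfat5, a transcription factor of the osmotic stress response, had 23.9% in one at chr8:107373531-107378792. First exons inside introns included those of Macf1, a microtubule and actin linker, with 8.59% (chr4:123407438-123412228), of Set, a phosphatase inhibitor, with 7.79% (chr2:30066456-30066893), and of Tsc22d1 with 14.1% (chr14:76504530-76504841). Among the stretches that extend an exon, Cxcl12, a chemokine, had 36.1% in a last exon at chr6:117173579-117175069 and Atp2a2, the calcium pump of the endoplasmic reticulum, 12.6% at chr5:122456340-122457302. A 1-exon transcript of Rbm15, an adaptor of the m6A writer complex, held 36.7% at chr3:107327135-107330214. Ensa, a phosphatase inhibitor, had 51.1% in a bin that fills a whole intron at chr3:95628708-95631431 and is exon 3 of 3 of Ensa-201.

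The depth and identity of the libraries bear on what follows. Exon-table counts ran from 7066018 to 18783523 per library with a median of 12946582.5, and the bins inside introns received 57310 to 193643 of them. Without 6 genes with the largest shares of the counts, 3377581 to 8501367 exon-table counts per library were left, with a median of 5907834. As means over the libraries, Vim at 968 CPM, Col1a1 at 399 CPM and Nes at 245 CPM were high. Col1a1 ran from 28.9 to 1389 CPM between libraries, and the other collagen read, Col1a2, stood at 2.295 CPM. Of the neuron markers Map2 stood at 84.1 CPM, Tubb3 at 1.33 CPM, and Rbfox3, Snap25, Dcx and Stmn2 at 0 or near 0. Of the microglia markers Cx3cr1 stood at 37.9 CPM, Csf1r at 4.28 CPM, and Aif1 and Ptprc near 0. Most defining markers of a mature neuron were thus at or near 0 in this RNA. Rbm45, counted over the whole gene, was at 5.74 to 10.5 CPM in the RBM45 KO libraries, 12.9 to 16.8 in control and 21.1 to 26.2 in KO rescue. The RNA level of Rbm45 does not check a small edit of its coding sequence. Mettl3 was at 3.58 and 3.39 CPM in METTL3 KO and at 11.3 and 8.70 in WT.

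The level of these bins as a class differed between genotypes, and the genotype means stood in the same order as those of the introns around them. Usage of a bin in a library is the log2 ratio of its count to the count that its share over all libraries gives, with 0.5 counts added to each. The median over the bins was taken in each library and averaged over the libraries of a genotype. It was -0.14 in WT, 0.14 in METTL3 KO, -0.05 in control, -0.13 in RBM45 KO and 0.06 in KO rescue. Among the control libraries it ran from -0.19 to 0.06, among RBM45 KO from -0.17 to -0.08 and among KO rescue from 0.00 to 0.18, so that control overlapped both. This spread of the controls went with the replicate number: the replicate 1 libraries of the control clones were at -0.14 and -0.19 and the replicate 2 libraries at 0.05 and 0.06. Among replicate 1 libraries RBM45 KO was at -0.10 and -0.17, overlapping control, and rescue at 0.01 and 0.18, above control. Among replicate 2 libraries RBM45 KO was at -0.08 and -0.17, below control, and rescue at 0.04 and 0.00, also below control. The numbers did not pair the rescue libraries with any other group, as described under the dependence on processing. The split of rescue by number is thus arbitrary, and its change of side against control carries no meaning. Over all 4 libraries rescue overlapped control. The rest of the introns, without the bins, measured the same way in 916 introns, moved in the same order and further: -0.32 in WT, 0.30 in METTL3 KO, -0.11 in control (-0.43 to 0.15), -0.29 in RBM45 KO (-0.39 to -0.16) and 0.18 in KO rescue (0.04 to 0.45). Between WT and METTL3 KO, alternative exons went from -0.10 to 0.03, last exons apart from their neighbours from -0.09 to 0.06, and last exons that extend the exon before from -0.20 to 0.24. Intron counts took 16.7% to 22.2% of exon and intron counts together. The part of this library-wide intron level in the result of any single bin was not tested.

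**Figure D2:**
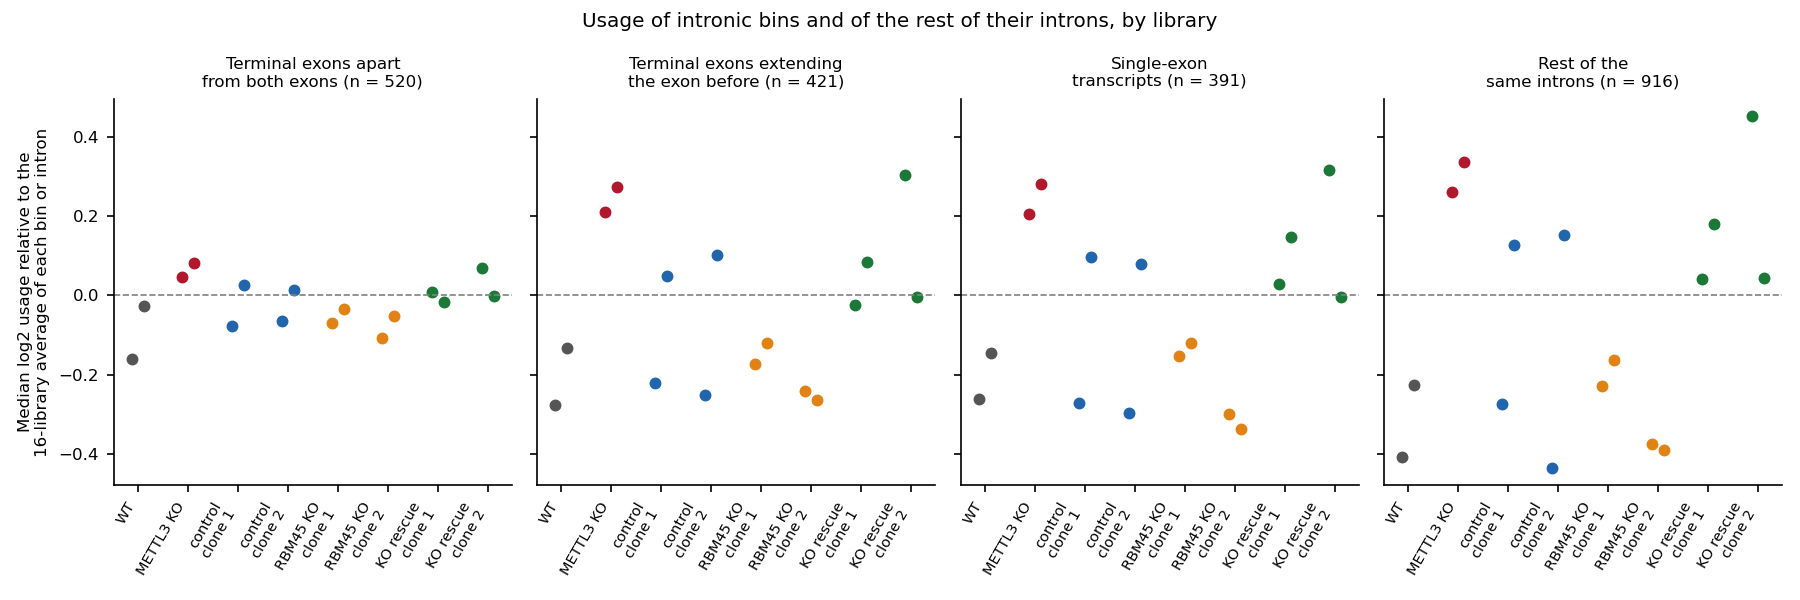
Usage in each of the 16 libraries, as the median log2 difference from the 16-library average, for 3 kinds of bin inside introns and for the rest of the introns. Each point is 1 library, coloured by genotype; both METTL3 KO libraries lie above 0 and both WT libraries below it in every panel, and the rest of the introns has the widest range, from -0.43 to 0.45.

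RBM45 knockout clones were compared with Cas9 control clones, with the libraries of a clone added together and the clone as the unit. Each bin was set against the remaining exon bins of its gene with edgeR diffSpliceDGE, and p-values were adjusted by Benjamini-Hochberg over all 101929 exon bins tested. Of the 2788 bins, 2436 could be tested. The other 352 were the only bin of their gene with enough counts. Of the 2436, 1 rose and 1 fell, while over all exon bins tested 0.00392% were called, 0.00196% in each direction. The bin that rose was the last exon inside intron 11 of Ide, and the bin that fell was an alternative exon of Tacc2. At an unadjusted p under 0.05 there were 78 bins (3.20% of the 2436), 70 of them lower, against 0.409% of all exon bins tested, 0.231% lower. Both shares were below the 0.05 that exact p-values give when nothing changes, so they do not count real changes. A higher share in these bins than in all exon bins was also seen between clones of 1 genotype, given below. The median log2 change was -0.10 for the 2436 bins and -0.00 for all exon bins tested.

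Ide encodes insulin-degrading enzyme, a zinc metalloprotease that degrades insulin and amyloid beta. The bin is exon 5 of 5 of the noncoding transcript Ide-203, is 1987 bp long and lies in the intron at chr19:37298175-37303893. It had 10 and 8 counts in control clone 1 and 7 and 7 in control clone 2, against 55 and 92 in RBM45 KO clone 1 and 80 and 102 in RBM45 KO clone 2. KO rescue clone 1 had 48 and 28 counts and KO rescue clone 2 had 31 and 37, while WT had 3 and 1 and METTL3 KO had 8 and 14. Every RBM45 KO library stood above every rescue library in share and every rescue library above every control, WT and METTL3 KO library. Since control averaged under 10 counts, the bin met the count condition through the knockout and rescue libraries. Its change was also known when the rule was set.

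As a share of the gene's exon-bin counts, the Ide bin was at 0.637% ± 0.117 in control and 22.9% ± 3.49 in the RBM45 KO clones, and it stood at 4.25% ± 0.373 in KO rescue (SD, n = 4, from 2 clones a genotype). The shares in RBM45 KO were 19.9% and 21.4% in clone 1 and 22.3% and 27.9% in clone 2. Set against the gene's remaining exon bins, the log2 change was 5.24 (SE 0.25, edgeR diffSpliceDGE, adjusted p = 5.04e-31). Taken as the difference described above, the remainder of the intron had 8 counts over all 16 libraries together. By this measure few counts of intron 11 lay outside the bin.

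The exons before and after the intron were lower in RBM45 KO by unequal amounts, which were not tested side by side. Per kb, the exon bins before the intron were at 23.9 CPM ± 1.75 in control, 10.9 ± 1.39 with RBM45 knocked out and 16.9 ± 1.37 after rescue (SD, n = 4), on a scale of CPM after TMM scaling. The exon bins after it were at 14.2 CPM per kb ± 0.524, 1.80 ± 0.556 and 8.98 ± 0.717 in the same order. The level after the intron over the level before it was 0.598 in control, 0.163 in RBM45 KO and 0.532 in KO rescue, beside 0.712 in WT and 0.646 in METTL3 KO. The bin itself went from 0.277 CPM per kb in control to 3.50 in RBM45 KO and 1.28 in KO rescue. Before and after the intron, every RBM45 KO library lay below every library of any other group. Over the whole gene, Ide was at 21.8 to 28.6 CPM in the RBM45 KO libraries and at 52.6 to 60.4 CPM in control. The log2 change of -1.15 did not pass in the gene table (edgeR, unadjusted p = 0.0002565, adjusted p = 0.754). In that comparison 0 of the 16867 genes tested passed, so this does not show that the level of Ide was unchanged.

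**Figure D3:**
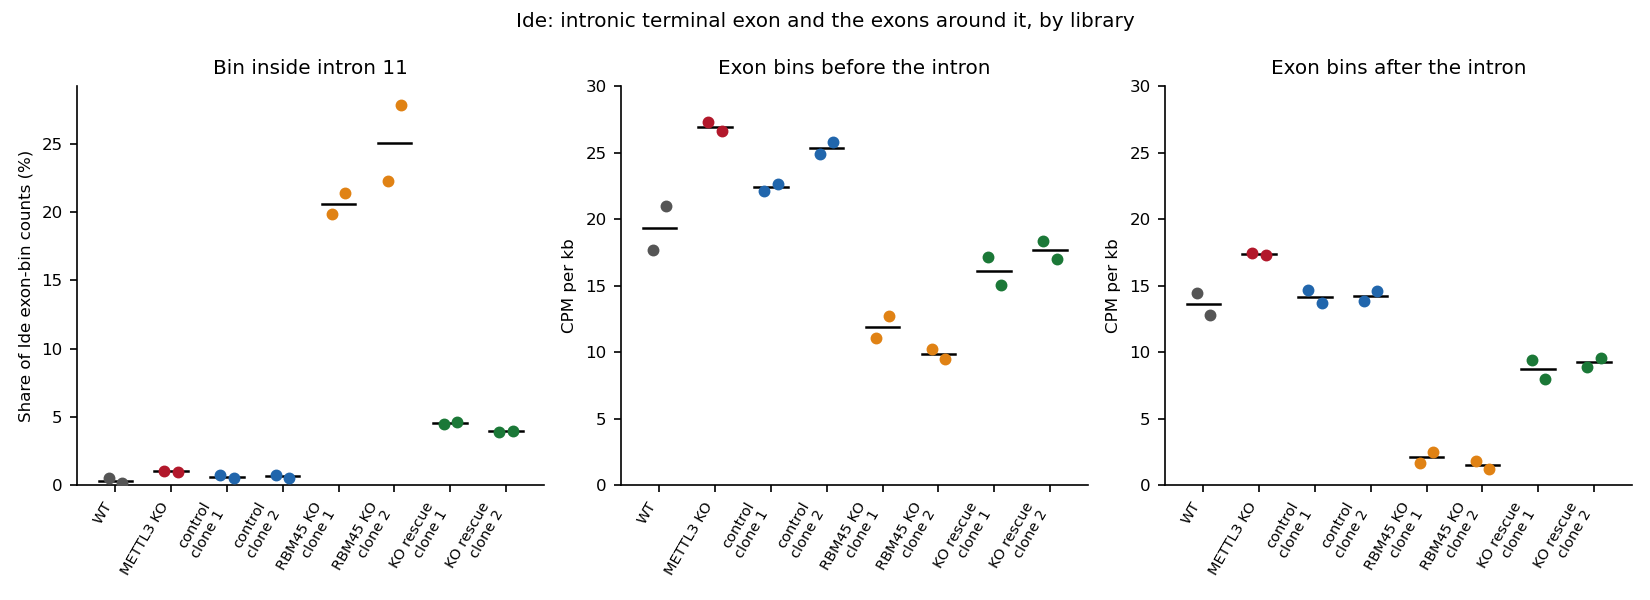
Ide in each of the 16 libraries: the share of its exon-bin counts in the bin inside intron 11 (%), and the CPM per kb of the exon bins before and after that intron, with a line at each group's mean. The 4 RBM45 KO libraries have shares of 19.9% to 27.9% and the lowest levels after the intron, and the 4 KO rescue libraries lie between RBM45 KO and control in all 3 panels.

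Tacc2, a coiled-coil protein of the centrosome, gave the other call. Its bin is a coding exon at chr7:130621721-130626841 on the plus strand, exon 4 of 4 of Tacc2-218, and Fgfr2 is annotated on the other strand there, whose part in the result was not tested. The shares were 6.68% and 4.41% in control clone 1, 11.5% and 9.24% in control clone 2, 1.08% and 2.38% in RBM45 KO clone 1, and 0.980% and 1.52% in RBM45 KO clone 2. All RBM45 KO libraries lay below all controls. In KO rescue the shares were 0.898% and 3.96% in clone 1 and 0.966% and 1.07% in clone 2, so rescue overlapped RBM45 KO and lay below control. WT had 5.56% and 6.12%, and METTL3 KO 12.8% and 10.4%. The bin fell by 2.32 on the log2 scale (SE 0.38, edgeR diffSpliceDGE, adjusted p = 0.00153). The counts in RBM45 KO were 4 to 10 per library, and the call was lost without RBM45 KO clone 1 (adjusted p = 0.215), RBM45 KO clone 2 (adjusted p = 1) or control clone 2 (adjusted p = 0.374).

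The next smallest p-values in RBM45 KO against control belonged to bins that did not pass. Cdk12, a transcription kinase that is known to keep intronic polyadenylation low, had a last exon extending the exon before at chr11:98245670-98246704, with a log2 change of -1.45 (unadjusted p = 0.00195, edgeR). It rested on few counts: 3, 5, 3 and 6 in RBM45 KO and 19, 20, 4 and 21 in control. Fto, an RNA demethylase, had a log2 change of -1.06 in the bin at chr8:91522897-91526230, and Myo10, an unconventional myosin, one of -1.54 in a first exon at chr15:25758785-25759151. The Fto share was 2.31% to 5.28% in RBM45 KO and 4.05% to 9.50% in control, so the groups overlapped.

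KO rescue clones were compared with RBM45 KO clones in the same fit. Only the Ide bin was called, and it was lower, while 0.000981% of all exon bins tested were called. It fell by 2.47 on the log2 scale (SE 0.21, edgeR diffSpliceDGE, adjusted p = 8.09e-12), from shares of 19.9% to 27.9% in RBM45 KO to shares of 4.51% and 4.64% in KO rescue clone 1 and 3.92% and 3.95% in clone 2. At an unadjusted p under 0.05 there were 196 bins (8.05% of the 2436), 193 of them higher in rescue, against 0.519% of all exon bins tested (0.397% higher). The median log2 change was 0.21 for the 2436 bins and -0.00 for all exon bins tested. By kind it was 0.36 for bins of 1-exon transcripts, 0.32 for last exons that extend the exon before, 0.26 for whole introns and 0.07 for last exons that stand apart. The rest of the introns was higher in rescue as well, as given above. In bulk RNA, fewer cells that use a bin and less of its RNA per cell cannot be told apart.

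The bins next in order of p in KO rescue against RBM45 KO were all higher in rescue and did not pass. Snrnp70 encodes the U1-70K protein of the U1 small nuclear ribonucleoprotein, and its bin at chr7:45381825-45383124 on the minus strand is a 1-exon transcript of the retained_intron type. Its share was 0.872%, 0.466%, 1.07% and 1.91% in the 4 RBM45 KO libraries and 3.11%, 2.68%, 3.33% and 2.34% in the 4 rescue libraries. The groups did not overlap, and control was at 0.672% to 1.59%. The log2 change was 1.48. For Birc6, an inhibitor of apoptosis, it was 1.35, for Git2, an Arf GTPase-activating protein, 1.25, and for Vcl, the adhesion protein vinculin, 1.05. The Vcl bin at chr14:20995993-20998781 was at 0.419% to 0.561% in RBM45 KO, 0.679% to 1.54% in rescue and 0.393% to 0.894% in control, so rescue was above RBM45 KO but not apart from control.

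KO rescue clones against control clones gave 1 bin higher and 1 lower, with 0.00589% of all exon bins tested called, 0.00294% in each direction. They were again Ide and Tacc2. The Ide bin was higher in rescue by a log2 change of 2.77 (SE 0.25, edgeR diffSpliceDGE, adjusted p = 2.71e-09), so the share in the rescue clones lay between RBM45 KO and control and apart from both. The Tacc2 bin fell by 2.14 on the log2 scale (SE 0.37, adjusted p = 0.00451, edgeR diffSpliceDGE), and between rescue and RBM45 KO it differed by 0.18 (adjusted p = 1). The rescue call of Tacc2 was lost without KO rescue clone 1 (adjusted p = 0.112), KO rescue clone 2 (adjusted p = 1) or control clone 2 (adjusted p = 0.771). DESeq2 gave this bin no adjusted p in this comparison (log2 change -2.28, unadjusted p = 1.22e-07), so it was not called there. These 3 comparisons share their clones, so they are not independent of each other. At an unadjusted p under 0.05 there were 130 bins (5.34% of the 2436), 104 of them higher, against 0.641% of all exon bins tested (0.432% higher).

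With libraries taken as units in place of the clones, in a fit of all 16 libraries, more bins passed. In RBM45 KO against control 8 were called against 0.0422% of all exon bins tested, in rescue against RBM45 KO 23 of which 22 were higher (0.0392% in either direction and 0.0363% higher), and in rescue against control 31 (0.13%). With the replicate number as a block as well, the counts were 8, 24 and 33, and the share of all exon bins called was not taken. These p-values treat libraries of 1 clone as separate and are an alternative to the main test. The genes so called in rescue against RBM45 KO included Snrnp70, with the shares given above. In rescue against control they included Ncor1, a corepressor of nuclear receptors, whose bin at chr11:62401551-62403435 was at 2.64% to 3.24% in rescue and 0.931% to 1.40% in control. Brwd1, a chromatin reader, had 7.24% to 9.03% in rescue and 3.20% to 5.14% in control in its bin at chr16:96066668-96068476.

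The METTL3 KO line was compared with WT, in a fit of all 16 libraries with the spread between replicate libraries. This compares 1 clone with the unedited line, and without 1 of the 4 libraries the count of calls below was 0 to 2. Of the 2436 bins, 4 rose and 1 fell, with 0.0137% of all exon bins tested called, 0.0128% higher and 0.000981% lower. The bins that rose were in Rtn4, Nsd2 (2 bins) and Ube2d3, and the one that fell was in a joined gene row. At an unadjusted p under 0.05 there were 435 bins (17.9% of the 2436), 413 of them higher, against 2.85% of all exon bins tested (1.68% higher). The median log2 change was 0.31 for the 2436 bins and -0.00 for all exon bins tested. It was 0.49 for bins of 1-exon transcripts, 0.46 for last exons that extend the exon before and 0.37 for whole introns, and 0.16 for last exons apart and 0.11 for alternative exons. METTL3 KO also had the higher level in the rest of the introns.

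Rtn4 encodes the reticulon Nogo, and its bin is the coding exon 3 of 9 of Rtn4-205 at chr11:29706410-29708770. The shares were 6.95% and 9.41% in WT and 18.8% and 16.8% in METTL3 KO. The log2 change was 1.12 (SE 0.15, edgeR diffSpliceDGE, adjusted p = 5.21e-05), and the call was lost without WT replicate 1 (adjusted p = 0.285). The 2 control clones differed in the same bin, with 14.1% and 15.6% in clone 2, close to METTL3 KO. RBM45 KO had 6.001% to 6.91% and KO rescue 8.88% to 9.51%. The level of this exon thus varied between clones that carry no edit of Mettl3.

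Nsd2, a methyltransferase of histone H3, had its bin at chr5:33868879-33871406, the start of a coding last exon of Nsd2-204. WT had 1.94% and 1.55% and METTL3 KO 4.71% and 4.49%, above every other library. The log2 change was 1.42 (SE 0.25, edgeR diffSpliceDGE, adjusted p = 0.0033). The other Nsd2 bin called, which starts at chr5:33872503 and follows the hexamers shown above, rose by 1.05 (adjusted p = 0.00426, edgeR diffSpliceDGE). Ube2d3, a ubiquitin-conjugating enzyme, had a 1-exon transcript of 13028 bp at chr3:135441598-135454625. The shares were 3.88% and 3.78% in WT and 7.62% and 8.60% in METTL3 KO, and the log2 change was 1.11 (SE 0.24, adjusted p = 0.0453, edgeR diffSpliceDGE). The calls of the first Nsd2 bin and of Ube2d3 were lost when any 1 of the 4 libraries was left out, with adjusted p-values of 0.0544 to 0.547 for Nsd2 and 0.196 to 1 for Ube2d3 (edgeR). For Ube2d3, a single library of KO rescue clone 2 (8.96%) stood above both METTL3 KO libraries. A single library of control clone 2 (7.42%) stood just below them.

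The Ide bin did not pass in METTL3 KO against WT. Its counts of 8 and 14 against 3 and 1 gave a log2 change of 1.66 (SE 0.66, edgeR diffSpliceDGE, adjusted p = 1). These few reads leave the change imprecise. The Tacc2 bin had a log2 change of 0.99 (adjusted p = 0.747, edgeR diffSpliceDGE).

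**Figure D4:**
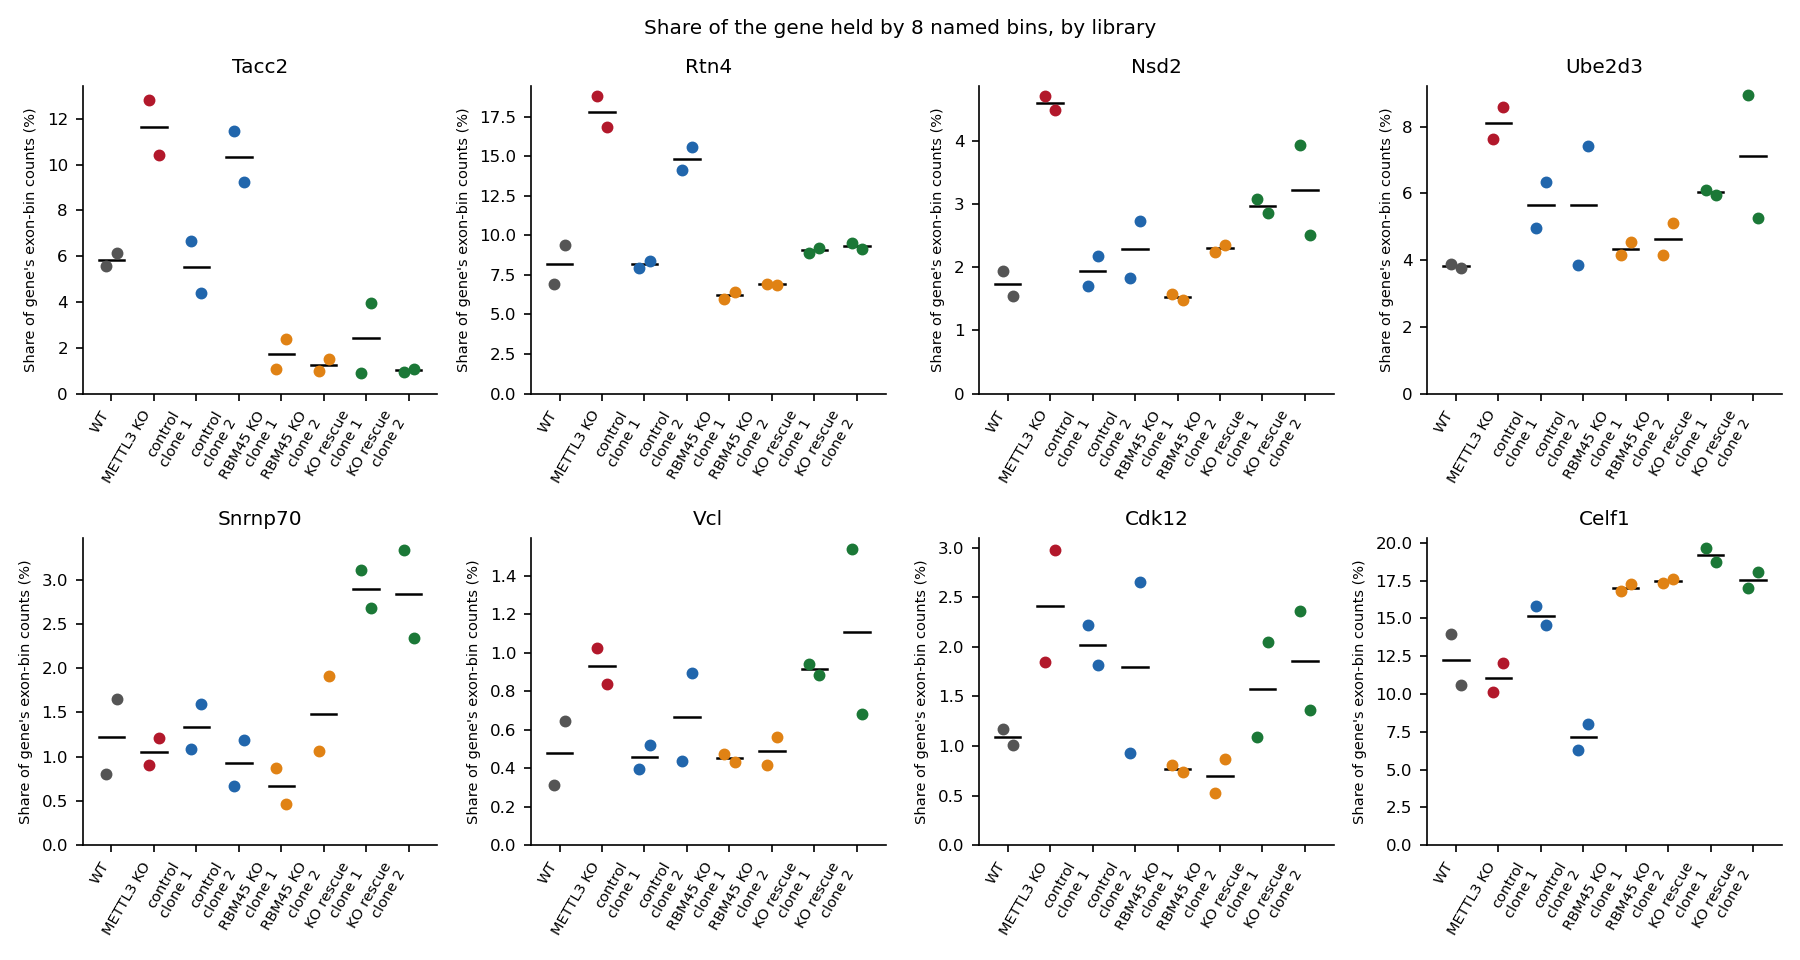
Share of the gene's exon-bin counts (%, linear axes that start at 0 and differ in scale) held by a bin inside an intron of 8 genes, with 1 point per library, coloured by genotype, and a line at the mean of each pair of libraries. Tacc2 is low in RBM45 KO and KO rescue, Rtn4 is high in METTL3 KO and in control clone 2, and Celf1 is lowest in control clone 2.

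Cas9 control clones against WT gave 0 called bins (0.000981% of all exon bins tested were called with edgeR diffSpliceDGE), and 161 (6.61% of the 2436) had an unadjusted p under 0.05 against 2.16% of all exon bins tested. limma voom and DESeq2 also called 0. The smallest p-values were in Map4, a microtubule-associated protein, with a log2 change of 1.24, Acaca, acetyl-CoA carboxylase, with 1.53, Slc38a2, an amino acid transporter, with 0.71, Tpm3, a tropomyosin, with 1.87, and Sirt1, a deacetylase, with -1.41. In Slc38a2 the bin fills a whole intron at chr15:96695510-96697921 and held 2.56% and 2.18% in WT and 2.76% to 4.90% in control. The WT libraries were lower, by less than the spread of the controls. In Tpm3 the WT libraries had 3 counts each, and the bin was at 0.490% and 0.397% in WT and 0.940% to 2.01% in control.

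Clones of 1 genotype were compared as well, since they show how far these bins differ without a difference in the labelled edit. Control clone 1 against control clone 2 gave 5 calls, 1 higher and 4 lower, with 0.0245% of all exon bins tested called, 0.00981% higher and 0.0147% lower. An unadjusted p under 0.05 was reached by 141 bins (5.79% of the 2436), against 1.79% of the other exon bins tested (edgeR diffSpliceDGE). Tpm2, a tropomyosin of the actin cytoskeleton, had 4.60% and 4.39% in clone 1 and 13.6% and 13.01% in clone 2 in a bin of its last exon at chr4:43514862-43515681, a log2 change of -1.55 (edgeR diffSpliceDGE, adjusted p = 4.1e-12). Rtn4 differed by -0.87 (SE 0.14, adjusted p = 0.00361, edgeR diffSpliceDGE). Celf1, a splicing regulator that binds GU-rich RNA, had 15.8% and 14.6% in clone 1 and 6.30% and 8.02% in clone 2 at chr2:91013491-91016565, a log2 change of 1.08 (adjusted p = 0.00906, edgeR diffSpliceDGE). The Tpm2 call held without any 1 of the 4 libraries, the Celf1 call was lost without each of them, and the Rtn4 call was lost without 3 of them. With libraries as units in both, RBM45 KO against control gave 8 calls beside these 5.

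The 2 RBM45 KO clones gave 0 calls with edgeR diffSpliceDGE (0.00196% of all exon bins tested), 170 bins at an unadjusted p under 0.05 (6.98% of the 2436, against 2.26% of all exon bins tested), and 2 calls with limma voom. With a replicate block there was 1 call. The smallest adjusted p was 0.0684, for a first exon of Dst at chr1:34236596-34238903 with 1.76% and 1.94% in clone 1 and 1.04% and 0.833% in clone 2. The Ide bin differed between these clones by a log2 change of -0.29 (adjusted p = 1.00), small beside the change from control. The 2 KO rescue clones gave 1 call, in a joined gene row (0.000981% of all exon bins tested). Gbf1, a factor of Golgi transport, Immt, a mitochondrial inner membrane protein, and Spg20 had log2 changes of -1.61, -1.23 and -1.34 there and did not pass.

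Genes of cleavage and polyadenylation were read in the gene table as the other part of the pathway. The list held 32 genes, with the cleavage complexes, poly(A) polymerases, U1 proteins, the CDK12 and SCAF genes and 3 further regulators, and 28 were tested. In RBM45 KO against control 0 passed and 0 had an unadjusted p under 0.05 (edgeR quasi-likelihood test), with a median log2 change of 0.01; in all, 0% of the 16867 genes tested passed and 983 had an unadjusted p under 0.05. In rescue against RBM45 KO 0 passed and 0 had an unadjusted p under 0.05, with a median of -0.01 and 0% of all genes called. In METTL3 KO against WT 1 rose and 4 fell, with 22.9% of the 16223 genes tested called. Papola, the main poly(A) polymerase, rose by 0.38, while Cpsf1, the largest subunit of the cleavage factor CPSF, fell by 0.60, the scaffold Sympk fell by 0.82, and the U1 proteins Snrpc and Snrnp70 fell by 0.70 and 0.45 (log2, edgeR, adjusted p under the 0.05 threshold). The median of the 28 was -0.13 and that of all genes was 0.01.

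No other bin was called both in RBM45 KO against control and in rescue against RBM45 KO. By the correlation of log2 shares over the 8 group means, the most alike were Hnrnpa2b1 (r = 0.94), Cyhr1 (r = 0.88) and Bhlhe40 (r = 0.88). These are descriptions over 8 points of shared libraries. Their shares moved little: the Hnrnpa2b1 bin ran from 9.31% to 11.9% over the 16 libraries and overlapped between genotypes. The first exon of Cyhr1 at chr15:76656360-76656716 was at 8.24% to 10.3% in RBM45 KO and 6.03% to 7.64% in control, and the Bhlhe40 bin at 1.82% to 2.86% and 1.58% to 2.30%.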

How the data were processed

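The count tables were deposited by the authors as raw counts per gene, exon bin and intron row in 16 libraries. Per the file headers, they were made with featureCounts from Subread 1.6.3, with strand setting 1, multiple overlaps counted and a minimum fragment overlap of 0.1; genes and exons are flattened Ensembl 98 models of GRCm38, and introns are flattened RefSeq models of mm10. Per the labels' protocols the kit was non-directional, so genes on opposite strands cannot be told apart. HISAT2 2.1.0 is listed in the submitters' processing notes. The unit of every file is counts; CPM, shares and ratios were computed here.

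Bins were classified with GENCODE M21, which also gave the sequences. Exon bins averaging at least 10 counts were fitted with edgeR 4.0.16 (TMM, glmQLFit, diffSpliceDGE), and the bin was compared with the rest of its gene, with Benjamini-Hochberg adjustment over all bins tested and a threshold of 0.05. RBM45 comparisons used the summed libraries of each of 6 clones; the others used 16 libraries in 8 groups. Genes were tested with edgeR's quasi-likelihood test after filterByExpr. The scripts were tested on counts simulated from the real means, with exon bins of any place changed by known folds. In RBM45 KO against control, 13.4% of bins changed 2-fold were recovered, 71.6% changed 4-fold and 92.4% changed 8-fold. In METTL3 KO against WT these were 16.4%, 68.7% and 89.4%. Most 2-fold changes were thus missed, so a bin that was not called was not shown to be unchanged. Alternatives were RLE scaling, no filter, limma 3.58.1, DESeq2 1.42.0, libraries as units, a replicate block, other length and count minimums, and leaving out a clone or library.

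Named bins are those that pass with groups apart (up to 10 a direction, or the 5 smallest p where fewer than 5 pass), the 3 smallest p in clone pairs, the 10 highest shares, the 10 highest over their intron, Ide, up to 3 examples a kind and the 3 most like Ide; joined rows, predicted genes and Rik clones are counted only. Whole introns and alternative exons listed as intron rows were separated after the data were seen. The bins and lists were chosen with earlier results of these data known.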

Additional observations from a re-analysis of the deposited data

Results flagged for a closer look

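In 81 groups of 4 libraries of the named bins, the share of 1 library stood far from the other 3 in 5 cases; chance gives about 1 in 20 groups. The Tacc2 bin was at 3.963% in KO rescue clone 1 replicate 2, and the other rescue libraries had 0.898% to 1.07%. The Git2 bin was at 4.489% in RBM45 KO clone 1 replicate 1 and at 2.27% to 2.39% in the other RBM45 KO libraries. The Map4 bin was at 1.639% in RBM45 KO clone 1 replicate 2 and at 0.675% to 0.804% in the others. The Acaca bin was at 3.182% in KO rescue clone 2 replicate 1 and at 2.01% to 2.16% in the others. The Immt bin was at 0.4893% in control clone 2 replicate 1 and at 0.814% to 0.865% in the others.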

How the results depend on the processing

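The Ide bin kept its direction and stayed past the threshold under all 12 alternatives in each RBM45 comparison (log2 5.09 to 5.64, -2.81 to -2.32 and 2.66 to 2.87, edgeR, limma or DESeq2). The counts of called bins were less stable. The share of all exon bins called was taken only in the main fits and with libraries as units. Counts under the other alternatives thus do not tell bins inside introns from exon bins at large. With the 16 libraries as units they were 8 in RBM45 KO against control, 23 in rescue against RBM45 KO and 31 in rescue against control, and with a replicate block 8, 24 and 33. limma voom gave 5 in rescue against RBM45 KO, 8 in rescue against control, 8 in METTL3 KO against WT and 2 between RBM45 KO clones. DESeq2 gave 2, 6 and 1 in the first 3 of these, 3 between control clones and 0 between rescue clones. Without the count filter METTL3 KO against WT gave 1 and control clones 3. Leaving out bins with a gene on the other strand gave 1 in RBM45 KO against control, 1 in rescue against control and 0 between rescue clones. A minimum of 500 bp gave 3 between control clones, and a mean of at least 20 counts gave 0 between rescue clones. Leaving out 1 clone or library gave 1 to 3, 1 to 2 and 1 to 3 calls in the RBM45 comparisons, 0 to 2 in METTL3 KO against WT (0 without WT replicate 1), 1 to 5 between control clones (3 and 1 without replicates 1 and 2 of clone 1, 2 without replicate 2 of clone 2) and 0 to 1 between rescue clones (0 without replicate 1 of clone 1). A group left with 1 clone or library is assumed there to vary like the others. Control against WT stayed at 0 in all 14 alternatives. Of 306 alternatives for 29 single-bin results, 28 lost a call, 14 gained one and 0 reversed.

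Nothing in the labels says what a replicate number marks. The correlation of same-numbered deviations (10553 genes) was over 0.1 in 14 of the 15 pairs of groups without KO rescue (0.08 to 0.563), among them all 6 pairs of control and RBM45 KO clones, and in 0 of the 13 pairs with a rescue clone (-0.383 to -0.01). The numbers thus paired the control and RBM45 KO libraries but not the rescue libraries. Each clone sum of the main test holds 1 library of each number. With libraries as units, RBM45 KO against control gave 8 calls with and without the block. The replicate block gave 1 call between RBM45 KO clones. In the list of cleavage and polyadenylation genes, libraries as units together with the block gave 3 calls in RBM45 KO against control and 4 in rescue against RBM45 KO. Clone sums gave 0 in both. The list was not fitted there with libraries as units and no block, so the parts of the 2 changes cannot be told apart. The share of all genes called in that fit was not taken. For METTL3 KO against WT that list gave 3 without the filter and 2 to 4 without 1 library. The causes of these differences were not tested. Low counts limit the precision of single bins.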

Other observations

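Further bins that were named by the rule differed between clones or lines and were not described above. Mprip, a myosin phosphatase-interacting protein, had 0.798% and 0.717% of its counts in the bin at chr11:59737229-59737582 in RBM45 KO clone 1 and 0.321% and 0.190% in clone 2, with 0.576% to 0.912% in KO rescue. Agap1, an Arf GTPase-activating protein, had 3.82% and 3.81% in RBM45 KO clone 1, 1.76% and 1.23% in RBM45 KO clone 2, and 1.40% to 2.097% in KO rescue in a first exon at chr1:89580236-89581653. Control clone 2 was highest, with 4.52% and 6.48%. Neither difference between the RBM45 KO clones passed with edgeR diffSpliceDGE (log2 1.56 and 1.35).

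Yap1, the coactivator of Hippo signalling, had 1.29% and 1.94% in WT and 4.62% and 4.22% in METTL3 KO in a last exon that extends the exon before, at chr9:7996908-8001456. The Yap1 bin was not called in METTL3 KO against WT. KO rescue had 4.15% to 5.36% and RBM45 KO 1.07% to 3.49%. Between these it did not pass in the main test but passed with libraries as units (log2 change 1.12, edgeR diffSpliceDGE, adjusted p = 0.015). The Celf1 bin was at 16.8% to 17.6% in RBM45 KO and up to 19.7% in rescue, while control clone 2 alone had 6.30% and 8.02%.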
